A study of Homo sapiens with 4 samples.

Results

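The genes described here are the core translation initiation and elongation factors, 45 genes chosen by name: the subunits of eIF2 and of its exchange factor eIF2B, the subunits of eIF3, the cap-binding factors of the eIF4 group with their binding proteins, the factors of start site selection and subunit joining, and the elongation factors. Of the 45, 44 were matched to probes by accession, and EIF2S3 alone was not. The 44 genes were read by 65 probes, and all 65 were well above background in both cell lines on all 4 arrays, so that none was lost to the filter on dim probes. They stood among 16582 named genes measured.

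The study asked what silencing of AEG-1, the product of MTDH (also called LYRIC), changes in the RNA of SAS, a human tongue squamous carcinoma cell line. SB cells were SAS cells with a lentiviral pLKO.1-LYRIC shRNA-B construct. SCt cells were SAS cells with the pLKO.1 vector as the labels state it, and with a scrambled hairpin as the study's methods state it. Stable clones of both lines came from 14 days of selection in puromycin (2 μg/ml), and the cells were grown in medium with 10% serum. One silenced line made with 1 hairpin was set against one control line, so an effect of MTDH and an effect of the hairpin or of the clone cannot be told apart. On each of the 4 arrays, which lay on 1 slide, cDNA from 15 μg of SB RNA was labelled red (Alexa 647) and cDNA from 15 μg of SCt RNA green (Alexa 555). No array had the dyes swapped, so the line and the dye cannot be told apart either. The labels call the 4 arrays biological replicates without saying whether they came from separate cultures, and p-values measure only the spread between these arrays. Those of limma, the linear model used below, take for each probe a variance moderated over all kept probes. Every value below is a log2 ratio of SB over SCt, so that a value under 0 is lower in SB cells. As equal masses of RNA were labelled and each array was centred, a ratio gives a gene's share of the RNA, and a change in RNA per cell was not measured.

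MTDH itself checked the labels. Its log2 ratio was −3.18, −3.01, −3.12 and −3.41 on arrays 1 to 4, with a mean of −3.18 ± 0.17 (SD, n = 4; adjusted p = 5.19e-10, limma with Benjamini-Hochberg adjustment), or 9.07-fold lower in SB cells. All 10 squamous epithelial markers examined were well above background in both lines on all 4 arrays, but so were 3 of 6 fibroblast, 4 of 4 leukocyte and 3 of 3 endothelial markers. Being above background therefore did not separate cell types on these arrays. Between 84.7% and 90.3% of spots per array and channel were well above background and no spot was saturated. The correlation of log2 ratios between arrays, over the 28505 kept probes, was 0.05 to 0.46.

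Translation starts when eIF2 brings the initiator tRNA to the small ribosomal subunit, with eIF1, eIF1A and eIF3 bound to it. The eIF4F complex, made of the cap-binding protein eIF4E, the scaffold eIF4G and the helicase eIF4A, brings the messenger RNA. Once the start codon is found, eIF5 and eIF5B drive the release of eIF2 and the joining of the large subunit. eEF1A then delivers each aminoacyl-tRNA, its GTP is renewed by the eEF1B subunits, and eEF2 moves the ribosome along. Growth signals act on this machinery through the 4E-binding proteins, which hold eIF4E away from eIF4G, and stress acts on it through eIF2 and eIF2B. Many genes of the machinery begin transcription with a C in an unbroken run of pyrimidines, the 5′ terminal oligopyrimidine (TOP) start, through which the mTOR pathway controls their translation.

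The sequence at the transcription start is shown for the members the results turn on. Members were chosen by name and not by their starts, but a TOP start is already known for many genes of this machinery. The share of members with one is therefore no independent finding. The search asked for a C as the first transcribed base followed by at least 4 further bases that are each C or T, on the transcribed strand alone, at the starts that RefSeq gives (GRCh38.p14). Each line shows 30 bases, 5′ to 3′, of which the 16th is the first transcribed base, and capitals mark the pyrimidine run that opens the transcript with a C.
EEF1A1 (chr6:73521018-73521047, minus strand): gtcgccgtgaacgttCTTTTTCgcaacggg
EEF2 (chr19:3985449-3985478, minus strand): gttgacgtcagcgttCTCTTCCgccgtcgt
EIF4A2 (chr3:186783562-186783591, plus strand): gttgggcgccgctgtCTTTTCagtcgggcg
EIF4A1 (chr17:7572810-7572839, plus strand): aggcgggcactccgcCCTagtttctaagga
EIF3F (chr11:7987322-7987351, plus strand): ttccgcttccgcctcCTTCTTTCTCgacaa
EIF4E (chr4:98929119-98929148, minus strand): ccttctggagcggttgtgcgatcagatcga
EIF1AX (chrX:20141824-20141853, minus strand): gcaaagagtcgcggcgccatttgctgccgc

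EEF1A1, EEF2, EIF4A2 and EIF3F had such a start, with runs of 7, 7, 6 and 10 bases. EIF4A1, the other eIF4A helicase, opened with a run of 3 bases, short of the 5 required, and EIF4E and EIF1AX opened with none. Among the 37 members with a start in the table, 11 had a TOP-like start (29.7%), against 1404 of 27305 genes in the table (5.14%). By group the count was 3 of 5 elongation factors, 4 of 8 eIF3 subunits, 2 of 11 eIF4 members, 1 of 7 eIF2 and eIF2B subunits and 1 of 6 start selection and joining factors. A match is a description of these letters, not a measured TOP motif.

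Over all members, SB and SCt cells differed little. Of the 44 measured, 3 passed an adjusted p of 0.05 over all kept probes (6.82%), where 4.19% of all 16582 genes did. EEF1A1 was higher in SB cells, and EIF4A2 and EIF4E were lower. For calls higher in SB cells the background was 1.22% of genes, against 1 member (2.27%), and for calls lower it was 2.97%, against 2 members (4.55%). Counts this small lie near the background and say nothing particular about translation factors. An unadjusted p under 0.05 was reached by 14 members (31.8%), where 19.8% of all genes did. Of these 4 were higher (9.09% of members), against a background of 8.46%, and 10 were lower (22.7%), against 11.3%. No member reached the 2.5-fold threshold used in the study's methods. The mean log2 ratio was below 0 in 32 members (72.7%) and above 0 in 12 (27.3%), where 49.1% of all genes were below 0 and 50.9% above. The member median was −0.04 beside 0.00 for all genes. When arrays were centred on their medians and loess was left out, these figures turned over: 21 members were called higher and 1 lower, and the member median became 0.19 with that of all genes at 0.07. In that processing 30.4% of all genes were called, 3359 higher and 1681 lower. The 95% intervals of the 41 members not called lay between −0.35 and 0.33.

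**Figure D1:**
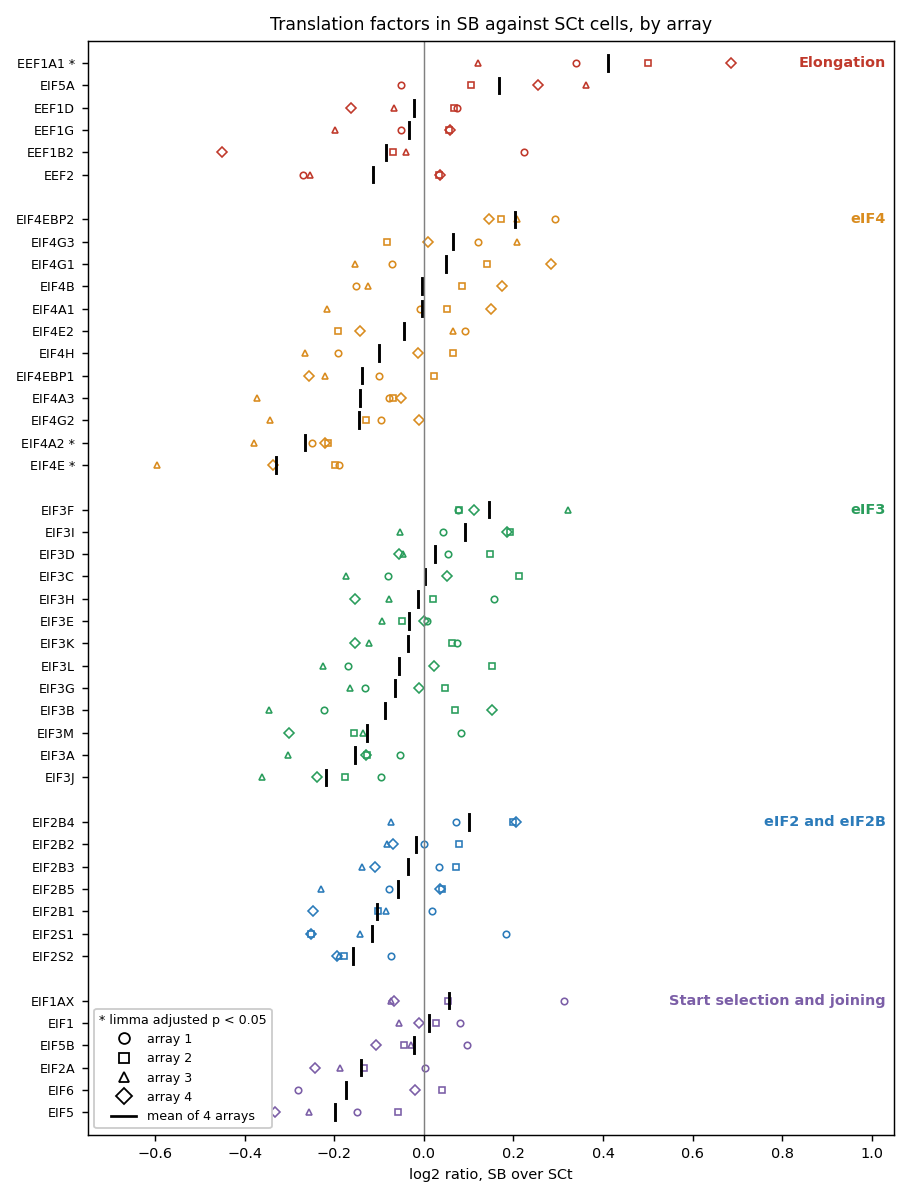
Log2 ratio of SB over SCt for the 44 measured members on each of the 4 arrays (open symbols, 1 shape per array), with the mean as a black bar, grouped by role. An asterisk marks an adjusted p under 0.05, which EEF1A1, EIF4A2 and EIF4E reached; 11 members had the same sign on all 4 arrays.

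The same sign on all 4 arrays was seen in 11 members (25%), against 27.5% of all genes. Of these 3 were higher (6.82% of members), against 12.8% of genes, and 8 lower (18.2%), against 14.7%. Those higher were EEF1A1, EIF4EBP2 and EIF3F. Those lower were EIF4E, EIF4A2, EIF4A3, EIF4G2, EIF3A, EIF3J, EIF2S2 and EIF5.

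Of the 6 factors of start selection and subunit joining, none passed the limma test, and 4 means were below 0 and 2 above. An unadjusted p under 0.05 was reached by 3 of them, where 19.8% of all genes reached it. At the low end was EIF5, which triggers GTP hydrolysis on eIF2 at the start codon. Its log2 ratio was −0.15, −0.06, −0.26 and −0.33, with a mean of −0.20 ± 0.12 (SD, n = 4; limma adjusted p = 0.103, 95% interval −0.33 to −0.06). All 4 arrays were below 0 and arrays 3 and 4 were lowest. The EIF5 probe lay at a mean log2 brightness of 8.28, where that of EIF6 lay at 14.0. EIF6, which keeps the subunits apart until they are ready to join, gave −0.28, 0.04, −0.43 and −0.02 (mean −0.17, limma adjusted p = 0.258). EIF2A, a factor that can bind initiator tRNA without eIF2, had a mean of −0.14 (limma adjusted p = 0.231). EIF1 and EIF5B, which guard start codon choice and drive subunit joining, stood at 0.01 and −0.02.

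EIF1AX, which holds the scanning small subunit open, was the highest of these by its brightest probe and was read by 3 probes that did not behave alike. The brightest gave 0.31, 0.05, −0.07 and −0.07 (mean 0.06, limma adjusted p = 0.727), and the next a mean of 0.07 (limma adjusted p = 0.558). The dimmest gave −0.21, −0.31, −0.49 and −0.26, with a mean of −0.31 ± 0.13 (SD, n = 4; limma adjusted p = 0.0171). It was below 0 on every array and below both other probes on every array. The probe sequences were not used here, so the transcripts that each probe reads are not given.

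None of the 7 measured eIF2 and eIF2B subunits passed the limma test, and 1 had an unadjusted p under 0.05 (19.8% of all genes did). Means were below 0 in 6 and above 0 in 1. EIF2S2, the eIF2 beta subunit, was lowest, at −0.07, −0.18, −0.19 and −0.19 (mean −0.16 ± 0.06, SD, n = 4; limma adjusted p = 0.144), and its other probe had a mean of −0.15. EIF2S1, the alpha subunit that stress kinases phosphorylate, gave 0.18, −0.25, −0.14 and −0.25, so that array 1 stood on the other side of 0 from the rest (mean −0.12, limma adjusted p = 0.441). In eIF2B, which reloads eIF2 with GTP, the 5 subunits ranged from −0.10 for EIF2B1 to 0.10 for EIF2B4. EIF2B4 gave 0.07, 0.20, −0.07 and 0.20 (limma adjusted p = 0.424). EIF2B5, the catalytic subunit, had a mean of −0.06, EIF2B2 of −0.02 and EIF2B3 of −0.04. The 3 probes of EIF2B3 differed in sign, at −0.04, −0.04 and 0.04, with none called.

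In eIF3, the multisubunit scaffold of the small ribosomal subunit, 0 of 13 subunits passed the limma test, and 9 means were below 0. An unadjusted p under 0.05 was reached by 3 subunits, where 19.8% of all genes reached it. EIF3J, a loosely bound subunit, was lowest, at −0.10, −0.18, −0.36 and −0.24, with a mean of −0.22 ± 0.11 (SD, n = 4; limma adjusted p = 0.0741, 95% interval −0.35 to −0.09). EIF3A, the largest core subunit, gave −0.05, −0.13, −0.30 and −0.13 (mean −0.15, limma adjusted p = 0.19). Both were below 0 on all 4 arrays, with array 3 lowest. EIF3F was highest, at 0.08, 0.08, 0.32 and 0.11 (mean 0.15 ± 0.12, SD, n = 4; limma adjusted p = 0.222). It was above 0 on all 4 arrays, and here array 3 was the highest.

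The other 10 eIF3 subunits had means from −0.13 for EIF3M to 0.09 for EIF3I. EIF3B, a core subunit read by 2 probes, gave −0.22, 0.07, −0.34 and 0.15 with the brighter and −0.24, 0.10, −0.38 and 0.14 with the other. Both probes put arrays 1 and 3 below 0 and arrays 2 and 4 above it. EIF3L fell on the same sides of 0, at −0.17, 0.15, −0.22 and 0.02, as did EIF3C, at −0.08, 0.21, −0.17 and 0.05. EIF3E and EIF3H stood at −0.03 and −0.01, EIF3K and EIF3G at −0.03 and −0.06, and EIF3D at 0.02.

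Both calls lower in SB cells fell in the eIF4 group of 12 members. An unadjusted p under 0.05 was reached by EIF4E, EIF4A2, EIF4EBP2, EIF4G2 and EIF4EBP1, where 19.8% of all genes reached it. EIF4A2, a helicase paralog of EIF4A1, gave −0.25, −0.21, −0.38 and −0.22, a mean of −0.27 ± 0.08 (SD, n = 4; limma adjusted p = 0.0247) or 1.20-fold lower. All 4 arrays were below 0, with array 3 lowest. It was read by 1 probe, so no second probe bears on it. EIF4A1, the more widely studied helicase of eIF4F, gave −0.01, 0.05, −0.22 and 0.15 with its brightest probe (mean −0.01, limma adjusted p = 0.979), and its other 2 probes had means of 0.09 and 0.01. The difference of EIF4A2 from EIF4A1 was −0.24, −0.27, −0.16 and −0.37 on arrays 1 to 4, a mean of −0.26 ± 0.09 (SD, n = 4). It was below 0 on 4 of 4 arrays, but an exact 2-sided sign-flip permutation test over 4 arrays cannot go below p = 0.125, the value it gave (0.15 adjusted over the 6 pairs compared). EIF4A3, the helicase of the exon junction complex, gave −0.08, −0.07, −0.37 and −0.05 (limma adjusted p = 0.274), with array 3 far below the rest.

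EIF4E, the cap-binding protein, was lower by its brightest probe, at −0.19, −0.20, −0.60 and −0.34, a mean of −0.33 ± 0.19 (SD, n = 4; limma adjusted p = 0.0276) or 1.26-fold lower. All 4 arrays were below 0, with array 3 lowest. Its other 2 probes did not both follow. One gave 0.00, −0.22, −0.44 and −0.32 (mean −0.24, limma adjusted p = 0.0849), and the other −0.03, −0.01, −0.20 and 0.29 (mean 0.01, limma adjusted p = 0.951). Their mean log2 brightness was 8.83 and 10.9, against 13.4 for the brightest probe. The related cap binder EIF4E2 gave 0.09, −0.19, 0.07 and −0.14 with its brightest probe (mean −0.04) and a mean of 0.07 with the other.

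The 4E-binding proteins lay on opposite sides of 0. EIF4EBP2 was the highest of the eIF4 group, at 0.29, 0.17, 0.21 and 0.15, a mean of 0.20 ± 0.06 (SD, n = 4; limma adjusted p = 0.0692), though its dimmer probe had a mean of 0.00 (limma adjusted p = 0.983). EIF4EBP1 gave −0.10, 0.02, −0.22 and −0.26 (mean −0.14, limma adjusted p = 0.256). EIF4EBP2 was above EIF4EBP1 on 4 of 4 arrays, by 0.34 ± 0.13 (SD, n = 4; exact permutation p = 0.125, the smallest possible).

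The scaffolds EIF4G1 and EIF4G3 had means of 0.05 and 0.06, and EIF4G2, which lacks the eIF4E-binding part and serves cap-independent initiation, of −0.14. By array EIF4G1 gave −0.07, 0.14, −0.15 and 0.28, EIF4G2 −0.09, −0.13, −0.34 and −0.01, and EIF4G3 0.12, −0.08, 0.21 and 0.01. None was called (limma adjusted p = 0.772, 0.253 and 0.634). The second probe of EIF4G2 gave −0.09, 0.00, −0.30 and 0.19 (mean −0.05, limma adjusted p = 0.777), and that of EIF4G3 had a mean of 0.04. EIF4G2 was below EIF4G1 on 4 of 4 arrays, by −0.19 ± 0.12, and EIF4G3 was above EIF4G2 on 4 of 4, by 0.21 ± 0.24 (SD, n = 4; both exact permutation p = 0.125). With the second probe of EIF4G2, EIF4G2 was still below EIF4G1 on 4 of 4 arrays, by −0.10, but EIF4G3 was above it on 2 of 4 alone, by 0.11 ± 0.31. EIF4G3 and EIF4G1 crossed, with a difference of 0.01 ± 0.31. The other pairs, EIF4A2 with EIF4A1, EIF4EBP2 with EIF4EBP1 and EEF1A1 with EEF2, had the same sign on 4 of 4 arrays with every combination of their probes. The helicase cofactors EIF4B and EIF4H had means of −0.00 and −0.10. The 3 probes of EIF4B were spread about 0, at −0.00, 0.08 and −0.09, and none was called.

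**Figure D2:**
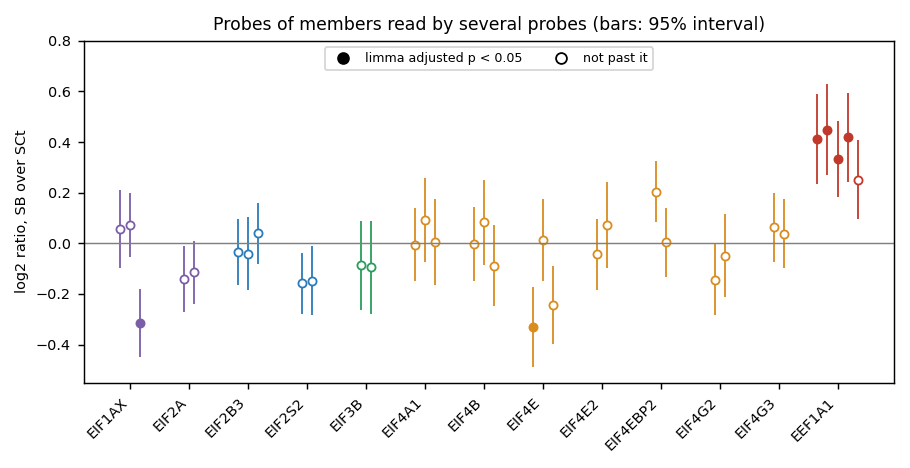
Mean log2 ratio of SB over SCt with its 95% interval (limma, n = 4 arrays) for each probe of the 13 members read by several probes, from the brightest at the left of each gene to the dimmest. Filled circles passed an adjusted p of 0.05: 4 of 5 probes of EEF1A1, 1 of 3 of EIF4E and 1 of 3 of EIF1AX.

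Among the 13 members with several probes, the call differed between probes in 3 (EEF1A1, EIF4E and EIF1AX) and the sign in 6 (EIF1AX, EIF2B3, EIF4A1, EIF4B, EIF4E and EIF4E2). Over single probes 7 of 65 were called (10.8%), where 3.7% of all 28505 kept probes were. By direction, 4 were higher (6.15%, background 1.32%), all of EEF1A1, and 3 were lower (4.62%, background 2.38%), and probes of 1 gene are not independent.

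Of the 6 elongation factors, EEF1A1 alone passed the test, and 4 of the other 5 had means below 0. An unadjusted p under 0.05 was reached by EEF1A1 and EIF5A, where 19.8% of all genes reached it. EEF1A1 encodes the aminoacyl-tRNA carrier eEF1A. Its brightest probe gave 0.34, 0.50, 0.12 and 0.68, a mean of 0.41 ± 0.24 (SD, n = 4; limma adjusted p = 0.0170) or 1.33-fold higher in SB cells. All 4 arrays were above 0, with array 4 highest and array 3 lowest. Its other 4 probes had means of 0.45, 0.33, 0.42 and 0.25, of which all but the last passed the test (limma adjusted p = 0.0123, 0.0218, 0.0149 and 0.0783). RefSeq names 50 pseudogenes of EEF1A1, and whether the probes also read their transcripts was not tested.

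EEF2, the translocase, was the lowest of the group, at −0.27, 0.03, −0.25 and 0.04 (mean −0.11 ± 0.17, SD, n = 4; limma adjusted p = 0.413). Arrays 1 and 3 were below 0 and arrays 2 and 4 just above it. EEF1A1 was above EEF2 on 4 of 4 arrays, by 0.53 ± 0.13 (SD, n = 4; exact permutation p = 0.125, the smallest possible). The exchange factor subunits EEF1B2, EEF1D and EEF1G, which recharge eEF1A with GTP, had means of −0.08, −0.02 and −0.03. EEF1B2 was the most spread of all members, at 0.22, −0.07, −0.04 and −0.45. EIF5A, which relieves stalled ribosomes, gave −0.05, 0.10, 0.36 and 0.26 (mean 0.17, limma adjusted p = 0.222).

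**Figure D3:**
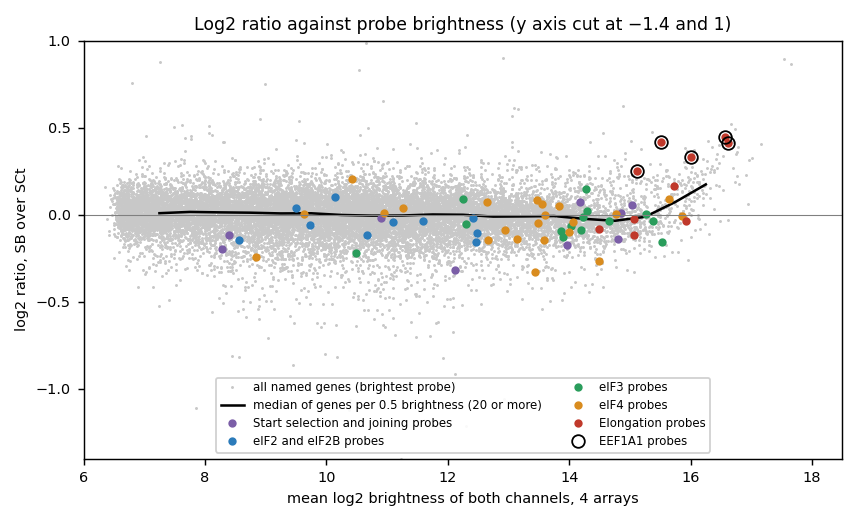
Mean log2 ratio of SB over SCt against the mean log2 brightness of both channels, for the brightest probe of each named gene (grey), the median of genes in steps of 0.5 in brightness (black line) and the 65 member probes (coloured by role); values beyond the ends of the y axis are not drawn. The black line rises above 0 at the bright end, where the 5 EEF1A1 probes (ringed) lie.

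The EEF1A1 probes were among the brightest on the arrays, and bright probes as a whole lay above 0. Of 40 other kept probes at least as bright as its brightest, 39 were higher in SB cells, their median was 0.35 and 57.5% were called higher. At the brightness of its median probe the figures were 160 probes, a median of 0.23 and 33.8%, and at that of its dimmest 551 probes, 0.11 and 12.5%. Over all kept probes the median was 0.01 and 1.32% were called higher. Other members with a probe at least as bright as the dimmest of EEF1A1 had lower values: EEF1G stood at −0.03, EIF3E at −0.03, EIF3C at 0.00, EIF3A at −0.15, EIF5A at 0.17, and the 2 such probes of EIF4A1 at −0.01 and 0.09. Their log2 brightness ran from 15.3 (EIF3C) to 15.9 (EEF1G), where the brightest EEF1A1 probe lay at 16.6 and its median probe at 16.0. No other member thus had a probe as bright as these, and the members are no like comparison for them. The 2 dimmest EEF1A1 probes were not brighter than these members. That at 15.5 lay within their range and gave 0.42 (limma adjusted p = 0.0149). That at 15.1 lay just below it and gave 0.25 (limma adjusted p = 0.0783). With the scanner software's own ratio in place of loess, EEF1A1 fell short of the test, at 0.25 (limma adjusted p = 0.216). With median centring it rose to 0.86 (limma adjusted p = 1.84e-05), and the median of the 40 probes at least as bright as its brightest rose to 0.82. The part of brightness in its value was not tested.

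**Figure D4:**
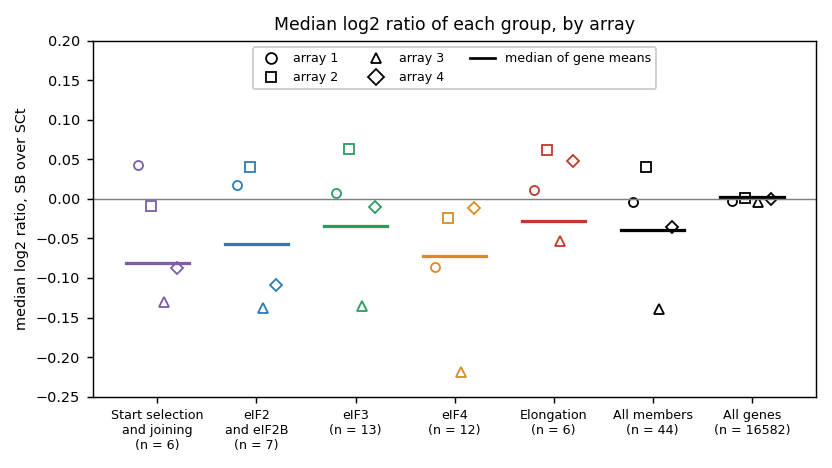
Median log2 ratio of SB over SCt over the measured genes of each group on each array (open symbols), with the median of the genes' means as a line. Array 3 is the lowest in all 5 groups, and the medians of all 16582 genes lie at 0.

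Taken by role, the groups had medians close to each other: −0.08 for start selection and joining, −0.06 for eIF2 and eIF2B, −0.03 for eIF3, −0.07 for eIF4 and −0.03 for elongation. The SD of the 4 array medians was 0.05 to 0.09 within a group, as wide as the gaps between groups. Array 3 was lowest in every group, at −0.13, −0.14, −0.14, −0.22 and −0.05 in the same order. Without array 3 the medians of eIF2 with eIF2B and of eIF3 were −0.00093 and −0.00055, and that of the elongation factors was 0.01. With median centring all 5 medians were above 0, from 0.04 to 0.33. By transcription start, the 10 measured members with a TOP-like start had a median of −0.06, with 3 means above 0, and the 26 without had a median of −0.03, with 9 above 0. On arrays 1 to 4 the medians were 0.064, 0.048, −0.124 and −0.105 with such a start. Without it they were −0.029, 0.046, −0.148 and −0.012, so the members with the start were lower on array 4 alone. The members with a TOP-like start held EEF1A1, called higher, and EIF4A2, called lower, and those without held EIF4E, called lower.

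**Figure D5:**
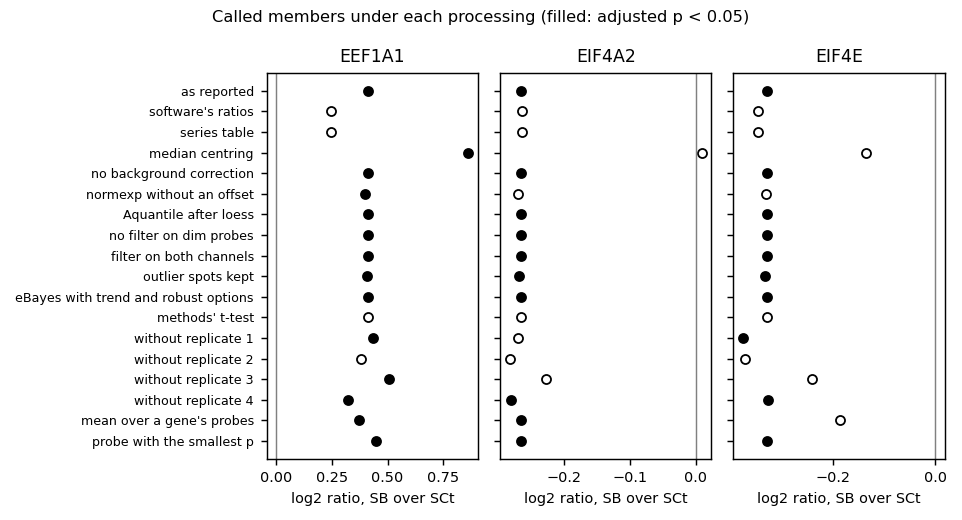
Mean log2 ratio of SB over SCt of the 3 called members as reported and under 17 other ways of processing, with circles filled where the adjusted p was under 0.05. EEF1A1 stayed above 0 and EIF4E below 0 under all of them, and EIF4A2 moved to 0.01 with median centring.

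The calls depended on the processing and on single arrays. EEF1A1 lost its call under 4 of 17 alternatives, EIF4E under 8, and EIF4A2 under 8, of which median centring put it at 0.01. The 17 include Aquantile normalization, which cannot change a ratio. They also count the software's ratios and the series table separately, which hold nearly the same values. Without array 2 no member was called in limma by its brightest probe (8 had an unadjusted p under 0.05, with no share over all genes given). Another EEF1A1 probe did pass then, at 0.46 (limma adjusted p = 0.0405). Without array 3 EEF1A1 alone was called by its brightest probe. Without array 1 EIF4A2 lost its call, and without array 4 EIF4EBP2 was called higher beside the other 3. The share of all genes called moved likewise: 2.58%, 1.75%, 0.83% and 7.46% without arrays 1, 2, 3 and 4, against 4.19% with all of them.

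A wider list of 49 genes was set beside the members: regulators of initiation (the eIF2 kinases, the S6 and MNK kinases, PDCD4, mTOR), poly(A)-binding proteins, release and recycling factors, and the mitochondrial factors. Of the 47 measured, 1 was called (2.13%, against 4.19% of all genes), MKNK2, a kinase that phosphorylates eIF4E, at −0.10, −0.20, −0.36 and −0.35 (mean −0.25 ± 0.12, SD, n = 4; limma adjusted p = 0.0449). Its other probe gave −0.44, −0.08, −0.14 and 0.07 (mean −0.15, limma adjusted p = 0.330) and was not called. By its brightest probe MKNK2 lost its call under 9 of 17 alternatives, among them those without array 2, 3 or 4. The median of the list was −0.03, with 30 means below 0 and 17 above.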

How the data were processed

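The authors deposited, per array, the output of Agilent Feature Extraction 10.5.1.1, with median intensities of the red and green channels and of the local background, not normalized, and the software's own ratio on a log10 scale. A series table that the authors deposited holds the software's processed ratios as log2 values, SB over SCt, and was used as an alternative.

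In R 4.3.3 with limma 3.58.1, background was corrected by normexp (offset 50), the 1377 control spots per array were removed, and spots marked as outliers by the software (1.89% to 2.71% per array) were left out. Ratios were normalized by loess within arrays and averaged per probe. Probes well above background in one and the same channel on all 4 arrays, with values on at least 2, were kept: 28505 of 34127. An intercept was fitted (lmFit, eBayes), with Benjamini-Hochberg adjustment over all kept probes. A gene took its brightest kept probe. Probes were named by accession in RefSeq (GRCh38.p14), where 24826 matched and 9301 did not; positions of the array design were not used. The number of arrays limits the precision. The SE of members was 0.0545 to 0.0885, from the eBayes variance, which is moderated over all kept probes and not taken from a gene's own SD alone. The steps were tested on simulated data.

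The members and the lists were chosen with earlier results of these data known. All members are accounted for. Values by array were given for called members, the extremes of each group, members whose probes differ, fixed pairs and called genes of the wider list. EIF2S1, EIF6, EIF3A, EIF3B, EIF3C, EIF3L, EIF4A3, EIF5A and EEF1B2 were added after their values were seen. Alternatives were the ratio source, centring, background, filters, outliers, variance model, the methods' t-test, the probe per gene and each array left out. The study's methods name a t-test for in vitro comparisons. Here it was run on each probe's log2 ratios, with a Benjamini-Hochberg adjustment that those methods do not state. All probes of the fixed pairs were compared as an alternative chosen after seeing the data. Protein sequences and those of probes were not used here.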

Additional observations from a re-analysis of the deposited data

Results flagged for a closer look

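In 3 members, 1 array lay far from the other 3, its gap to the nearest over the whole range being above Dixon's 95% critical value. Chance gives this in about 5% of genes, and 3 of 46 genes examined did so, as did 5 of 65 member probes. The share over all genes measured is not given. EIF2S2 had a gap of 0.882 of its range, with array 1 at −0.07 and the others at −0.18, −0.19 and −0.19. EIF3F had a gap of 0.853, with array 3 at 0.32 and the others at 0.08, 0.08 and 0.11. EIF4A3 had a gap of 0.917, with array 3 at −0.37 and the others at −0.08, −0.07 and −0.05.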

How the results depend on the processing

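Over single members and MKNK2, 664 of 765 alternative values kept direction and call, 49 changed sign with no call on either side, 28 lost the call, 12 gained one and 12 turned with a call on at least 1 side, with the causes not tested. The 765 include ratios that could not move: those under Aquantile, and those of genes with 1 probe under another choice of probe. The software's ratios and the series table, nearly the same values, are both counted. The share kept is therefore no measure of stability. The sign changed at least once in 32 members. The 3 member calls became 0 with the software's ratios and 0 with the series table (9 with an unadjusted p under 0.05 in limma each), 0 by the methods' t-test (7), 1 with normexp without an offset and 22 with median centring, 21 higher and 1 lower, when 30.4% of all genes were called. Of all genes, 2.91%, 2.86%, 0% and 3.18% were called with the software's ratios, the series table, the t-test and normexp without an offset. In the wider list the 1 call became 0 with the software's ratios, the series table (8 each), normexp without an offset (8) and the t-test (5), 8 with median centring and 2 with the probe of smallest p. By the brightest probes, leaving out each array gave 0 to 4 members and 0 to 5 of the wider list. It was 0 members without array 2, with 8 at an unadjusted p under 0.05 in limma, and 4 without array 4. Between 0.83% (without array 3) and 7.46% (without array 4) of all genes were called then. For the unadjusted counts under these alternatives the share over all genes is not given, so they cannot be set against a background. In the processing as reported that share was 19.8%. Median centring moved the medians to 0.12 for start selection and joining, 0.038 for eIF2 and eIF2B, 0.23 for eIF3, 0.16 for eIF4, 0.33 for elongation and 0.19 for all members. Leaving out arrays moved the elongation median between −0.058 and 0.032. Median centring turned 27 members from below to above 0, 16 of them with no call on either side and 11 with one: EIF3A (0.21), EIF3G (0.17), EIF3K (0.25), EIF3E (0.31), EIF3H (0.24), EIF4A2 (0.0090), EIF4A1 (0.38), EIF4B (0.20), EEF2 (0.21), EEF1G (0.36) and EEF1D (0.30). The probe of smallest p put EIF1AX at −0.31. MTDH stayed between −3.24 and −3.06, and by the t-test its −3.18 had an adjusted p of 0.143 over all probes, with no gene called. Aquantile normalization leaves ratios as they are and moved none. The log2 ratio within each array already pairs SB with SCt, and no further pairing of arrays was possible, as all form 1 group. A slide block was not possible with 1 slide.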

Other observations

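A pattern by array was noticed after the values were seen. Arrays 1 and 3 both lay below arrays 2 and 4 in 17 of 44 members (38.6%), against 22.4% of 16371 genes with values on all 4 arrays, and both lay above them in 8 members (18.2%), against 20.5%. It was seen in 6 of 12 eIF4 members, 5 of 13 eIF3 subunits, 3 of 6 elongation factors, 2 of 7 eIF2 and eIF2B subunits and 1 of 6 start selection and joining factors, among them EIF3B, EIF4G1 and EEF2. The labels give nothing that pairs these arrays.

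In the wider list, HBS1L, a factor in the rescue of stalled ribosomes, was also named after its values were seen. Its brightest probe had a mean of −0.04 and was not called, while its other 2 probes had means of −0.35 and −0.42 (limma adjusted p = 0.0223 and 0.00356). These 2 were dimmer, at a mean log2 brightness of 8.86 and 7.66, against 10.9 for the brightest.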
